A study of Homo sapiens with 24 samples.

Results

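The comparison described here is the difference between 2 squamous carcinoma lines, Cal27 and Fadu, in their transcriptional response to cold atmospheric plasma. It is the plasma-induced change in Cal27 minus the plasma-induced change in Fadu, and it used 12 of the 24 libraries of the study, 3 in each of 4 groups. Cal27 is an established line from a tongue tumor and Fadu one from the hypopharynx. The cells were exposed for 60 s to plasma from a piezoelectric device (Piezo-CAP) or left unexposed (0 s), and polyadenylated RNA was taken at 24 h. Cal27 was kept in DMEM and Fadu in MEM, both with fetal bovine serum, so that the line and the medium cannot be told apart. Each line stands for 1 tumor. Nothing in the labels states that the 3 libraries of each group are separate cultures, and the p-values cover the spread between libraries alone, which may be technical. By its title, the study asks about plasma as a sensitiser of such tumors to chemotherapy and checkpoint immunotherapy.

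Cold atmospheric plasma is a partly ionised gas that delivers reactive oxygen and nitrogen species, hydrogen peroxide among them, to the cells and their medium. Cells answer such oxidants through the transcription factor NRF2, which is released from its inhibitor KEAP1 and switches on genes of glutathione and thioredoxin metabolism. They also answer through stress kinase signalling to AP-1 and NF-kB factors, the p53 checkpoint and the integrated stress response. Squamous carcinomas of the head and neck often depend on signalling by the EGF receptor and can carry lesions that hold NRF2 active.

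Libraries held 27.9 M to 35.6 M counts in Cal27 and 29 M to 37.5 M in Fadu (M, counts times 1e6), and all mitochondrial genes stood at 0 counts in every library. Both lines carried the squamous program they are labelled with: 14 of 18 squamous epithelium markers reached 10 CPM (read counts relative to the TMM-scaled library total) in untreated Cal27 and 17 of 18 in untreated Fadu. Their summed level was 2516 to 2575 CPM in untreated Cal27, 1728 to 1734 CPM in treated Cal27, 11390 to 11812 CPM in untreated Fadu and 5992 to 6522 CPM in treated Fadu. Of 12 leukocyte markers, 1 reached 10 CPM in Cal27 (CSF1R) and 0 in Fadu, and the summed level was at most 18.4 CPM in any library. The fibroblast and endothelial markers, 8 each, summed to at most 25.4 and 10.8 CPM. The melanocyte and thyroid follicle markers, 8 each, summed to at most 26.5 and 42.2 CPM. Of these, TYRP1 reached 10 CPM in untreated Fadu, PAX8 and FOXE1 in both groups of Cal27 and FOXE1 in treated Fadu. In these bulk libraries, fewer cells of a kind and less RNA per cell cannot be told apart. The biological coefficient of variation was 5.19%, so small changes could be called.

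The lines answered differently on a large share of the transcriptome. Of 20539 genes tested, 9288 (45.2%) had a response that differed between the lines at an adjusted p under 0.05 (edgeR, quasi-likelihood F test, p adjusted by Benjamini and Hochberg), 4714 (23%) with a higher and 4574 (22.3%) with a lower response in Cal27. Within the lines, 8058 genes (39.2%) changed in Cal27, 4051 up (19.7%) and 4007 down (19.5%), and 9826 (47.8%) changed in Fadu, 4895 up (23.8%) and 4931 down (24%). Of the 5279 genes called in both lines, 3379 (16.5% of genes tested) moved in opposite directions and 1900 in the same direction. Plasma raised 1646 genes (8.01%) in Cal27 that it lowered in Fadu, and lowered 1733 (8.44%) in Cal27 that it raised in Fadu. Among the other genes with a called difference, 1855 changed in Cal27 alone by the test, 2976 in Fadu alone, 310 in neither line taken alone, 247 changed in the same direction but more in Cal27 and 521 in the same direction but more in Fadu. With a minimum 1.2-fold change in each line required, 679 genes moved in opposite directions, 355 up and 324 down in Cal27. Most differences were modest. The median size of a called difference was 0.63 on the log2 scale, and 1299 genes higher and 1013 lower in Cal27 reached a size of 1. In 6377 genes (31%) the untreated and treated libraries did not overlap in CPM in either line. Across genes, the changes of the lines had a Pearson correlation of 0.026 over all genes tested and -0.14 over the 9117 genes with a mean of at least 10 CPM in the higher group of each line, a description over genes, which are not independent replicates.

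**Figure D1:**
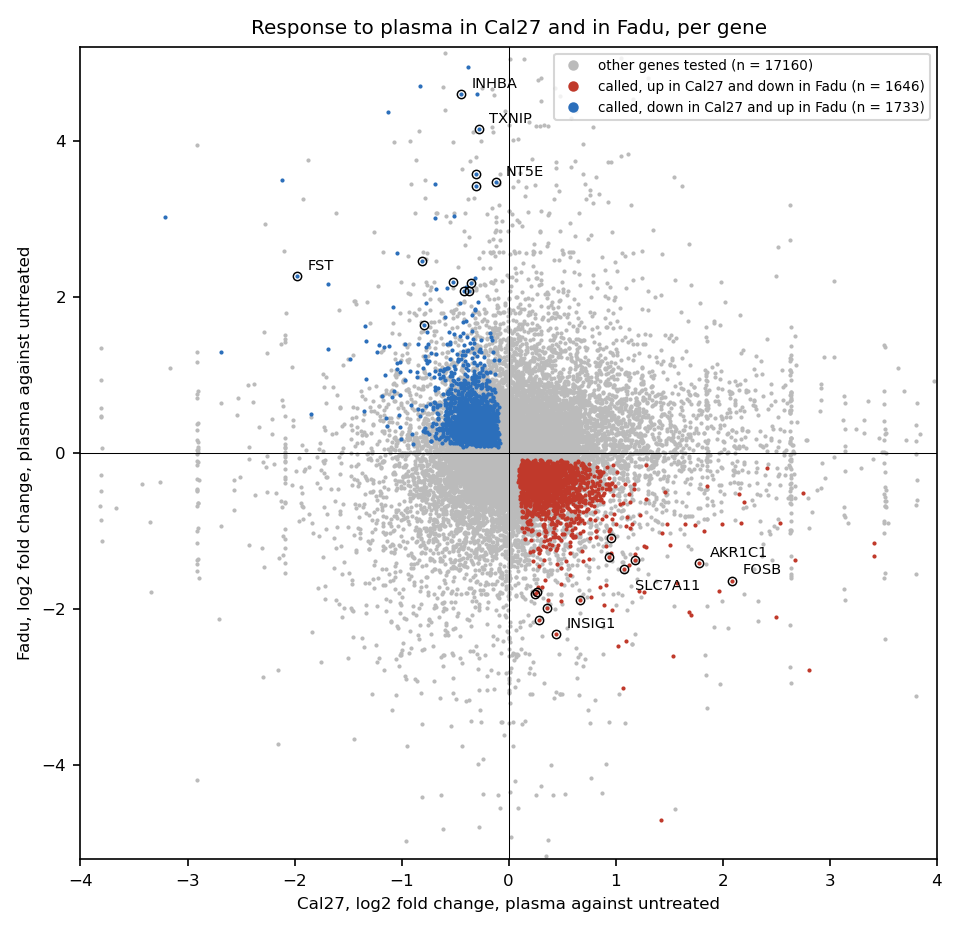
Each point is 1 of the genes tested, with its log2 fold change after plasma in Cal27 on the x axis and in Fadu on the y axis. The 1646 red genes were called up in Cal27 and down in Fadu, the 1733 blue genes down in Cal27 and up in Fadu, and black circles mark the 24 such genes chosen by the naming rule. The 110 genes beyond the axes are not drawn, and the bands of grey points are genes with reads in few libraries.

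Gene length and base composition moved with the response, and in opposite ways in the lines. Over the same 9117 genes, Spearman's rho between the change and relative transcript length was 0.45 in Cal27, -0.27 in Fadu and 0.42 for the difference. With GC content it was -0.45, 0.25 and -0.41. With the genes cut into 5 equal bins by length, the median difference was -0.40 in the shortest bin and 0.34 in the longest. The part of this trend in the results was tested only by removing it. After removal of the length trend 2805 genes moved in opposite directions, 2209 of them also in the unadjusted comparison, and after removal of the GC trend 2943, with 2289 shared. Scaling moved the balance of higher and lower calls as well. Of the called differences 50.8% were higher in Cal27 here, against 68.5% on the deposited TPM values, a scale on which the median difference over all genes shifted by 0.13. Of the genes called within Cal27, 50.3% rose here, against 84.4% on TPM and 63.5% with library size only, and within Fadu 49.8%, 52.3% and 61.6%. On TPM the median change of all genes moved up by 0.17 in Cal27, so that a fall in Cal27 smaller than this depends on the scaling. Values under another scaling or without a trend stand below beside many, but not all, of the lists and genes whose sign they change. The Fadu median of antioxidant enzymes, for example, was -0.08 here and 0.02 with library size only.

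**Figure D2:**
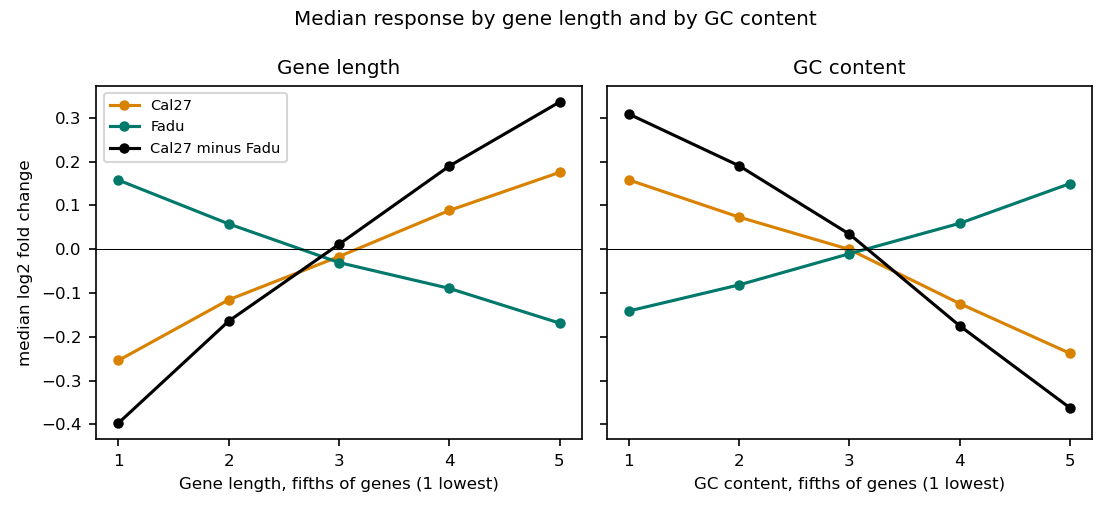
Median log2 fold change after plasma in 5 equal bins of genes ordered by relative length (left) and GC content (right), over 9117 genes, for Cal27, Fadu and their difference. From the shortest to the longest bin the Cal27 median went from -0.25 to 0.18 and the Fadu median from 0.16 to -0.17.

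Promoters are shown for NRF2 targets, which separated the lines, for interferon-stimulated genes, which mostly fell in both, and for CD274, which encodes PD-L1 and moved in opposite directions. The windows run from 250 bases before to 50 after the start of the gene (RefSeq, GRCh38.p14), 5′ to 3′ on the strand of the gene, and 12858 of the tested genes had one. Capitals mark, for the first pair, the core of the antioxidant response element bound by NRF2, searched as TGACNNNGC, and for the other 4 the interferon-stimulated response element, searched as GAAANNGAA, both on either strand. Matches may overlap one another, and a match is only a run of letters. The first motif was found in 5 of 18 NRF2 target promoters (27.8%) against 15% of the promoters of tested genes, and its share was similar or higher in lists with other responses, among them interferon-stimulated genes (26.3%), ATF4 targets (33.3%) and checkpoint ligands (35.7%). The second was found in 26 of 38 interferon-stimulated gene promoters (68.4%) against 6.72%.
TXNRD1 (chr12:104215529-104215828, plus strand): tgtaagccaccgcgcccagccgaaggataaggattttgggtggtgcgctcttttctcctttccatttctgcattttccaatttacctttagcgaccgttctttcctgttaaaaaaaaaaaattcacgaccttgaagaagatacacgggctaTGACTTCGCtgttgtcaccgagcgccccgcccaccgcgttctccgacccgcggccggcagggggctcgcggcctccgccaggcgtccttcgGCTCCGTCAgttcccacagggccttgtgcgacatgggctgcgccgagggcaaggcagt
GCLM (chr1:93909381-93909680, minus strand): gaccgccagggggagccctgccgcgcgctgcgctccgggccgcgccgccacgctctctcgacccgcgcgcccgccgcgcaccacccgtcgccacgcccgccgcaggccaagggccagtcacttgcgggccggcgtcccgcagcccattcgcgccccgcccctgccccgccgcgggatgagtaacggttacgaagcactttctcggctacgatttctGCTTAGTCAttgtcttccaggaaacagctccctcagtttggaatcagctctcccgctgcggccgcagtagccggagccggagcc
ISG15 (chr1:1013247-1013546, plus strand): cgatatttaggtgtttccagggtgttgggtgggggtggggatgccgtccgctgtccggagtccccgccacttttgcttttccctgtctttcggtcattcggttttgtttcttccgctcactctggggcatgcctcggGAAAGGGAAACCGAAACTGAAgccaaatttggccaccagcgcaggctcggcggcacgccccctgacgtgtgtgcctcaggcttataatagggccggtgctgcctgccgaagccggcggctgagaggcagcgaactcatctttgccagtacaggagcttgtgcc
IFI44L (chr1:78620198-78620497, plus strand): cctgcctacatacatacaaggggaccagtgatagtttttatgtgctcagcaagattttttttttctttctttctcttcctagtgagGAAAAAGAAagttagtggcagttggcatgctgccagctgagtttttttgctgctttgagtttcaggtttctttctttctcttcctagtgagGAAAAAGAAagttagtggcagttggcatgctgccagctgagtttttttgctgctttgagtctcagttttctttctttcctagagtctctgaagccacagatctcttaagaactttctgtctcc
IFIT1 (chr10:89392373-89392672, plus strand): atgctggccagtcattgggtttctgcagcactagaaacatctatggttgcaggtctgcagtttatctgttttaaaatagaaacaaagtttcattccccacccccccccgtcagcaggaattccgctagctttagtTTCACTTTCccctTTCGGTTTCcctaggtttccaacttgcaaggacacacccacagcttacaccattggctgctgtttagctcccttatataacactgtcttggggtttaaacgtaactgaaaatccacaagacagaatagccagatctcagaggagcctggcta
CD274 (chr9:5450292-5450591, plus strand): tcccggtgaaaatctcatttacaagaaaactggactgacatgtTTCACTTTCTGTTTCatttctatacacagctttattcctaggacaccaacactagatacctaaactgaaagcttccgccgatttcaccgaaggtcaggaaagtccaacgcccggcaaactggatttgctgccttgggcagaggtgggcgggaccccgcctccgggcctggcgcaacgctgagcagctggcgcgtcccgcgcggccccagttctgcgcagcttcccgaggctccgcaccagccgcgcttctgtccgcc

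NRF2 targets gave the widest median difference of the 38 lists. Of 27 members, 25 had a higher response in Cal27 and 1 a lower one, with a median difference of 1.18 against 0.03 over all genes tested. In Cal27 20 rose and 2 fell (median 0.45), whereas in Fadu 1 rose and 24 fell (median -0.79), and 19 members were called up in Cal27 and down in Fadu. They cover cystine import, glutathione synthesis, thioredoxin reduction, NADPH supply, heme breakdown, iron storage and carbonyl reduction. The split held after removal of the length trend (median difference 1.31, with 20 members in opposite directions).

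SLC7A11, the cystine transporter that feeds glutathione synthesis (ENSG00000151012.13, chromosome 4, 138164097 to 138242349, minus strand, in GENCODE 29 on GRCh38, as for all gene positions below), stood at 308, 317 and 316 CPM in untreated and 634, 686 and 673 CPM in treated Cal27. In Fadu it stood at 232, 241 and 238 CPM before and 89, 87.5 and 77.6 CPM after plasma. Its 3 treated libraries lay above all untreated ones in Cal27 and below them in Fadu, with changes of 1.08 and -1.48 and a difference of 2.57 ± 0.056 (SE, adjusted p = 2.52e-36). It was named for opposite movement, which required such a separation, so the separation is no further support. GCLC, the catalytic subunit of the enzyme that makes the first step of glutathione synthesis, went from 91.8, 87.7 and 95.1 to 171, 174 and 181 CPM in Cal27 and from 233, 236 and 234 to 100.3, 92.8 and 85.7 CPM in Fadu (difference 2.27 ± 0.062 SE, adjusted p = 1.19e-32). The modifier subunit of the same enzyme, GCLM, whose promoter is printed above, had changes of 1.07 and -0.64. Both subunits therefore rose in Cal27 and fell in Fadu.

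TXNRD1, the cytosolic thioredoxin reductase, was abundant in both lines, at 1096, 1096 and 1119.9 CPM before and 1793, 1826 and 1815 CPM after plasma in Cal27. In Fadu it was at 1240.1, 1235 and 1206 CPM before and 855, 859.7 and 822 CPM after. The untreated levels of the lines were close, and the treated ones lay above them in Cal27 and below them in Fadu, with a difference of 1.25 ± 0.040 (SE, adjusted p = 3.42e-30). NQO1, a quinone reductase, went from 106, 104 and 108 to 161, 157 and 161 CPM in Cal27 and from 506, 502 and 515 to 342, 336 and 336 CPM in Fadu. Its changes of 0.59 and -0.59 were of the same size with opposite sign. HMOX1, the heme oxygenase, went from 11.3, 12.3 and 13.1 to 18.6, 16.3 and 15.1 CPM in Cal27 and from 43.3, 41.5 and 41.2 to 18.3, 14.7 and 14.3 CPM in Fadu (difference 1.87 ± 0.13 SE, adjusted p = 2.43e-17). AKR1C1, an aldo-keto reductase, had the widest difference among the members named for opposite movement, 3.19 ± 0.12 (SE, adjusted p = 4.72e-27), from 12.7, 13.2 and 11.3 to 39.2, 45.6 and 42.9 CPM in Cal27 and 36.6, 33.1 and 33.5 to 15, 11.9 and 12.1 CPM in Fadu. Its reads can also align to the near-identical AKR1C2 and AKR1C3, which moved the same way (1.23 and 0.44 in Cal27, -0.79 and -1.04 in Fadu), so the 3 are not independent.

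The members that supply NADPH and store iron separated the lines mainly through Fadu. PGD, a dehydrogenase of the pentose phosphate pathway, rose by 0.31 in Cal27 and changed by -0.85 in Fadu, and the malic enzyme ME1 did so by 0.34 and -0.85. The ferritin heavy chain FTH1 changed by -1.05 in Fadu, with a Cal27 value of 0.07 that did not pass, and the light chain FTL by 0.19 and -0.76; both have processed pseudogenes that share reads. Thioredoxin itself, TXN, was the 1 member with a lower response in Cal27 (-0.08 against 0.13), and on TPM or without the length trend 0 members had one. The transporter ABCC2 did not pass. A separate list of antioxidant enzymes did not follow: 4 of 19 were higher and 9 lower in Cal27, with a median difference of -0.14 that became 0.14 on TPM and 0.20 without the length trend. GPX1, a glutathione peroxidase, went from 189, 186 and 168 to 120.2, 112 and 123 CPM in Cal27 and 56.2, 53.8 and 57.3 to 73.8, 69.2 and 72.5 CPM in Fadu.

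**Figure D3:**
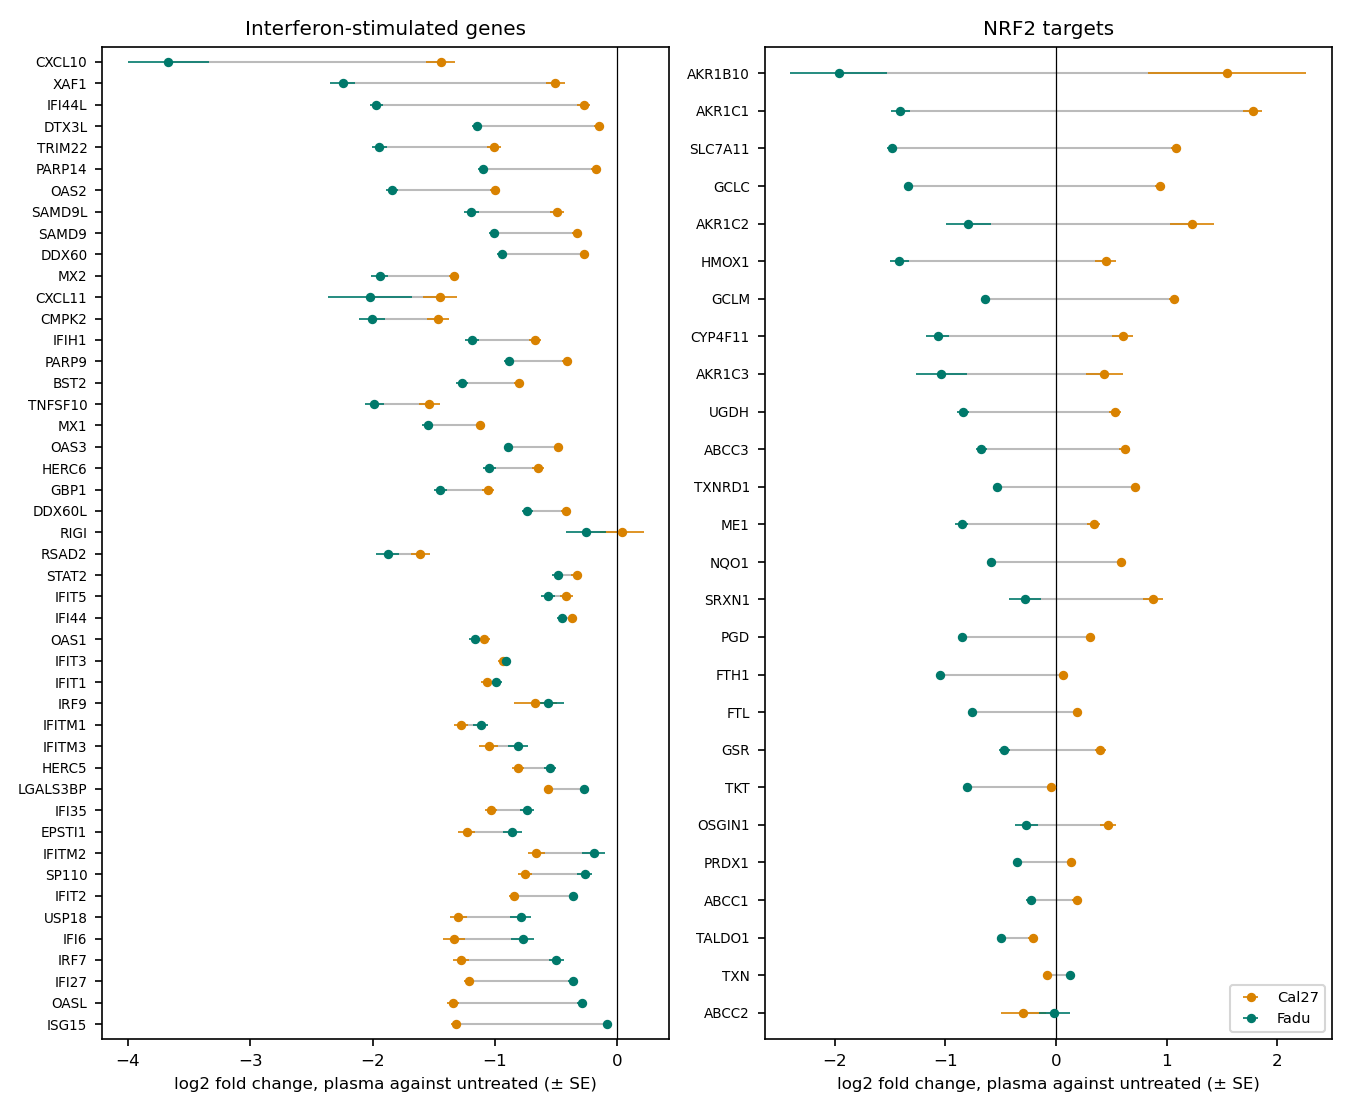
Log2 fold change after plasma (± SE) of 46 of the 47 tested interferon-stimulated genes (left) and 26 of the 27 tested NRF2 targets (right), with Cal27 in orange and Fadu in green joined by a line, ordered by the difference. The interferon points of both lines lie below 0 in nearly every row, whereas the NRF2 points lie on either side of 0 in most rows.

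Interferon-stimulated genes, the antiviral effectors switched on by interferon receptors, fell in both lines: 46 of 47 fell in Cal27 (median -0.85) and 44 of 47 in Fadu (median -0.94), and 0 members moved in opposite directions. The lines nevertheless differed on most members by amount, 23 with a higher and 13 with a lower response in Cal27 (76.6% called, against 45.2% of all genes tested). Among the 9117 genes with a mean of at least 10 CPM in the higher group of each line, 6728 had a called difference. That share is close to the share of the list, so the list did not stand out from well expressed genes in this. ISG15, a ubiquitin-like modifier, went from 755, 736 and 676 to 281, 292 and 296 CPM in Cal27 and from 232, 222 and 223 to 220.2, 198 and 222 CPM in Fadu. It fell in Cal27 by 1.32 on the log2 scale and did not pass in Fadu (value -0.08), with a difference of -1.24 ± 0.056 (SE, adjusted p = 5.96e-22). IFI44L was the reverse, at 106, 113 and 116 CPM before and 87.4, 94.4 and 95.4 CPM after plasma in Cal27 and 194, 209 and 211 and 58.5, 50.7 and 47.8 CPM in Fadu (difference 1.70 ± 0.075 SE, adjusted p = 6.5e-21). IFIT1, an RNA-binding effector, had changes of -1.07 and -0.99, and their difference did not pass (-0.08 ± 0.069 SE, adjusted p = 0.404). Of the promoters printed above, ISG15 holds 3 matches to the motif, which overlap, and IFI44L and IFIT1 hold 2 each. ISG15 fell most in Cal27 and IFI44L in Fadu, whereas IFIT1 had no called difference.

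Within the list, OASL (-1.34 in Cal27 against -0.29 in Fadu), IFI27 (-1.21 and -0.37) and IRF7 (-1.28 and -0.50), the regulator of interferon production, fell more in Cal27. XAF1 (-0.51 and -2.24), DTX3L (-0.15 and -1.14), PARP14 (-0.18 and -1.10) and the chemokine CXCL10 (-1.44 and -3.67) fell more in Fadu. CXCL10 was scarce in Fadu, at 1.6, 1.87 and 1.36 CPM before and 0.22, 0.155 and 0 CPM after plasma, a few reads per library, so its Fadu value is imprecise.

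Genes of MHC class I antigen presentation did not differ between the lines in 1 direction. Of 19 members, 15 fell in Cal27 and 14 in Fadu, while 6 had a higher and 8 a lower response in Cal27. Their median difference of -0.05 became 0.15 without the length trend and 0.17 on TPM. The heavy chain HLA-B fell in Cal27 and rose in Fadu (-0.56 and 0.27), with a difference of -0.84 ± 0.055 (SE, adjusted p = 6.81e-16). The heavy chain HLA-C, at 1732, 1772 and 1693 CPM before and 1243, 1191 and 1231 CPM after plasma in Cal27 and 860.4, 829 and 839 CPM before and 885, 835 and 869 CPM after in Fadu, fell by 0.50 in Cal27. Its Fadu value of 0.03 did not pass, and was -0.10, a called fall, after the length or the GC trend was removed. Reads of these genes can align to one another. The invariant chain B2M fell in both lines (-0.34 and -0.29), a difference that did not pass and that was 0.17 on TPM and 0.26 without the length trend, both called. The peptide trimming enzymes went the other way: ERAP2 stood at 115, 110.4 and 118 CPM before and 124, 116 and 116 CPM after plasma in Cal27, which overlap, and 209.8, 209.9 and 212 and 102, 93.6 and 88.5 CPM in Fadu (difference 1.21 ± 0.062 SE, adjusted p = 4.05e-22), and ERAP1 had changes of 0.18 and -0.88. The loading chaperone tapasin, TAPBP, fell in Fadu by 1.14 and had a value of 0.11 in Cal27 that did not pass.

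Checkpoint ligands bear on the stated purpose of the study. Of 16 tested, 4 moved in opposite directions, against 16.5% of all genes tested, and 7 had no called difference. CD274, which encodes PD-L1, went from 58.6, 58.2 and 59.9 to 36.3, 40.6 and 42.7 CPM in Cal27 and from 14, 17.6 and 17.2 to 31.9, 35.4 and 36.6 CPM in Fadu. No untreated library overlapped a treated one in either line, and the changes of -0.56 and 1.09 differed by -1.66 ± 0.10 (SE, adjusted p = 1.12e-18). The untreated lines were far apart in it, whereas the treated Fadu libraries came within a few CPM of the treated Cal27 libraries. PVR, the ligand of the receptors TIGIT and CD226, went from 417, 407 and 419 to 323, 319.9 and 320.0 CPM in Cal27 and from 85, 82.3 and 83.3 to 107, 106 and 111 CPM in Fadu. PDCD1LG2, which encodes PD-L2, rose by 1.67 in Fadu with a Cal27 value of -0.31 that did not pass. NT5E, the CD73 ectoenzyme that makes adenosine, went from 5.01, 5.38 and 4.43 to 50.8, 58.3 and 55.5 CPM in Fadu and from 531, 520.1 and 535 to 481, 484 and 493 CPM in Cal27. Its Cal27 fall was small (-0.12) and its sign depended on the scaling, with 0.11 on TPM, whereas the difference was called under each alternative (-3.59 ± 0.073 SE, adjusted p = 1.6e-38). LGALS9, which encodes galectin-9, fell in both lines (-1.45 and -2.36). Of the 16 members tested, 3 had a higher and 6 a lower response in Cal27, and the median difference of 0.09 became -0.01 on TPM. Those down in Cal27 and up in Fadu were 4, against 8.44% of all genes tested. On TPM, where 12 were tested, 2 were so and 1 was the reverse. Most of the genes given above had a lower response in Cal27, which the list median did not.

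NF-kB driven cytokines and chemokines fell in Cal27, where 21 of 28 fell and 0 rose (median -0.64), but divided in Fadu, where 12 rose and 13 fell (median 0.04). In Cal27 15 fell and 4 rose on TPM, and 18 fell and 3 rose with library size only. The response was lower in Cal27 for 16 members and higher for 8, and 9 fell in Cal27 and rose in Fadu (6 on TPM, where 3 did the reverse). The neutrophil chemokines showed this. CXCL1 went from 184, 187 and 176 to 88.5, 89.1 and 88.5 CPM in Cal27 and from 47.5, 48.2 and 45.9 to 102, 105 and 109 CPM in Fadu, so that treated Fadu ended above treated Cal27 (difference -2.20 ± 0.062 SE, adjusted p = 1.24e-32). CXCL8 went from 419, 433 and 372 to 172, 218 and 195 CPM in Cal27 and from 129.7, 130.0 and 127 to 221, 222 and 227 CPM in Fadu (difference -1.86 ± 0.11 SE, adjusted p = 6.76e-08). IL1B, the inflammasome cytokine, went from 570.3, 568 and 539 to 280.2, 278 and 277 CPM in Cal27 and from 83.1, 84.2 and 86.1 to 96, 95.3 and 94.9 CPM in Fadu, a small rise of 0.18. IL6 fell by 1.42 in Cal27, from 202, 204 and 189 to 70.3, 76.6 and 76.3 CPM, and was low in Fadu, at 1.81, 2.26 and 1.39 and 2.42, 2.38 and 2.16 CPM, where its value did not pass.

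A colony stimulating factor and the inducible cyclooxygenase rose in Fadu by more than 3 on the log2 scale. CSF2, the granulocyte and macrophage factor, rose by 4.60 in Fadu and fell in Cal27 (-0.29), and IL11, a cytokine of the IL-6 family, had 3.01 and -0.68. PTGS2, the enzyme of prostaglandin synthesis, went from 13, 11.6 and 9.18 to 112, 125 and 123 CPM in Fadu and stood at 37.6, 35.4 and 40.6 CPM before and 39.7, 43.3 and 44 CPM after plasma in Cal27, which did not pass (difference -3.25 ± 0.11 SE, adjusted p = 2.13e-23). Other members fell further in Fadu than in Cal27: TNF (-2.22 against -0.35), CCL20 (-2.16 against -0.73), the inhibitor NFKBIA (-1.0 against -0.15) and the adhesion molecule ICAM1 (-1.10 against -0.41). TNFAIP3, the other feedback inhibitor, had -0.25 in Cal27 and 0.83 in Fadu.

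**Figure D4:**
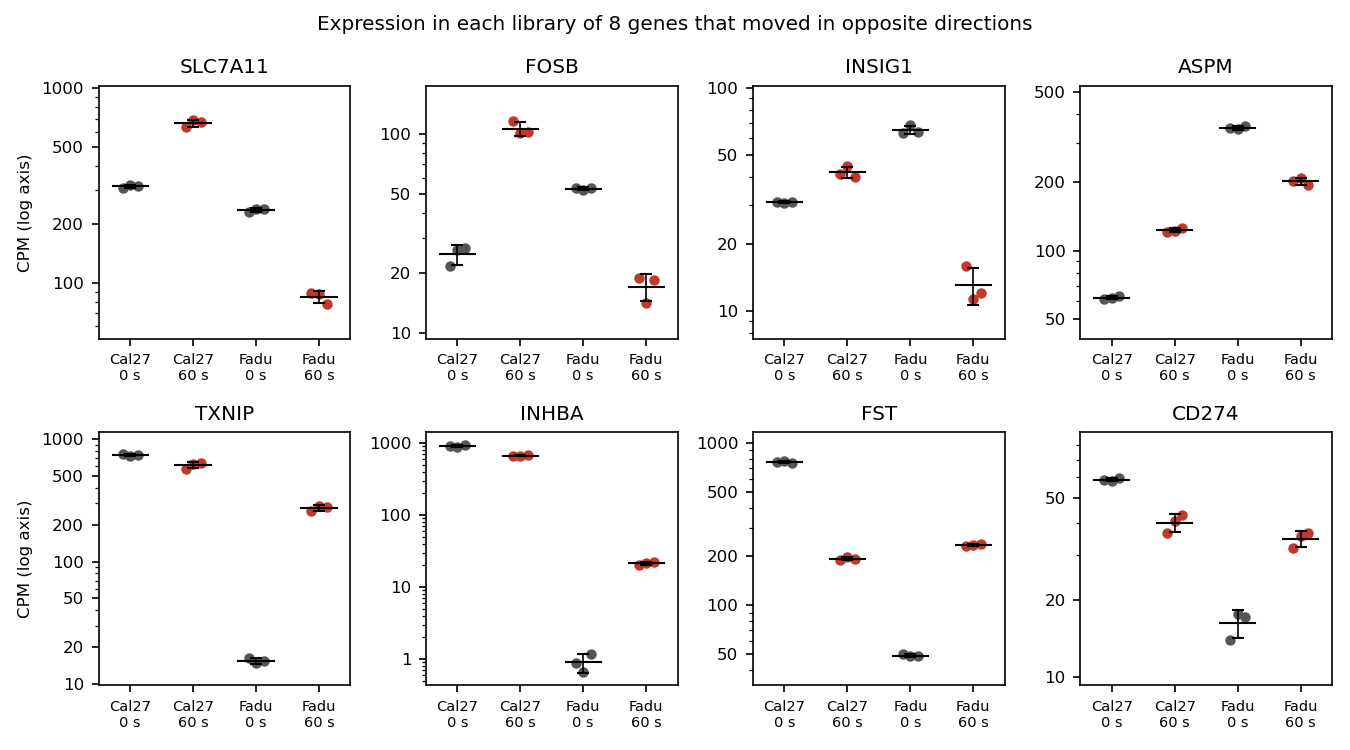
Expression in CPM, on a log axis, of 8 genes called in opposite directions, with each library a point (grey untreated, red 60 s of plasma), the mean of 3 as a line and bars of ± 1 SD. The upper row rose in Cal27 and fell in Fadu and the lower row fell in Cal27 and rose in Fadu, with no overlap between untreated and treated libraries of a line. Except for ASPM and CD274, this lack of overlap was a condition of being named.

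Activin A and its antagonist both fell in Cal27 and rose in Fadu. INHBA, the subunit of activin A (ENSG00000122641.11, chromosome 7, 41667168 to 41705834, minus strand), was nearly absent from untreated Fadu, at 0.874, 0.65 and 1.17 CPM, and rose to 20.2, 21.6 and 22.3 CPM, while in Cal27 it went from 904, 882 and 936 to 657, 668 and 679.9 CPM. The difference of -5.03 ± 0.10 (SE, adjusted p = 3.01e-38) arose almost wholly in Fadu (4.59 against -0.44). FST, follistatin, the secreted antagonist that binds activin (ENSG00000134363.12, chromosome 5, 53480409 to 53487134, plus strand), went from 762, 773 and 748 to 190.3, 198 and 192 CPM in Cal27 and from 50.1, 48.4 and 48.5 to 231, 235 and 239 CPM in Fadu. Its difference of -4.24 ± 0.051 (SE, adjusted p = 7.17e-49) came from both lines. The ligand TGFB1 (-0.34 and 1.35) also fell in Cal27 and rose in Fadu. The TGF-beta and activin list as a whole did not follow. Of its 23 tested members, 8 had a higher and 6 a lower response in Cal27, against 23% and 22.3% of all genes tested. The median was 0.02, which was -0.14 without the length trend and 0.12 on TPM. Members down in Cal27 and up in Fadu were 5, and 3 were the reverse.

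TXNIP, the thioredoxin-interacting arrestin that responds to glucose and restrains its uptake (ENSG00000265972.6, chromosome 1, 145992435 to 145996600, minus strand), went from 16.3, 14.7 and 15.4 to 258, 286 and 279 CPM in Fadu and from 757, 728 and 749 to 575, 630.4 and 634 CPM in Cal27. The untreated Cal27 libraries held far more of it than the treated Fadu libraries, and the lines differed by -4.43 ± 0.062 (SE, adjusted p = 3.86e-42). ARRDC4, the related arrestin under the same glucose-sensing factor, went from 4.43, 5.56 and 5.13 to 54.4, 58.6 and 57.3 CPM in Fadu and stood at 175, 167 and 175 CPM before and 178, 188 and 182 CPM after in Cal27, where it did not pass. ARRDC3 had 0.13 in Cal27 and -0.63 in Fadu, opposite to both. The Cal27 fall of TXNIP was not called on TPM or without the length trend.

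Genes of the ERK pathway and its feedback mostly rose in Fadu. Of 20 EGF receptor ligands, receptors and ERK feedback genes, 13 rose and 6 fell in Fadu (median 0.57), 5 rose and 7 fell in Cal27 (median 0.06, which was -0.06 without the length trend), against 10 up and 5 down on TPM (median 0.27), and 12 had a lower and 6 a higher response in Cal27. The ligand amphiregulin, AREG, went from 499, 505 and 505 to 195, 201 and 195 CPM in Cal27 and from 106, 108 and 104 to 152, 159.7 and 151 CPM in Fadu (difference -1.89 ± 0.051 SE, adjusted p = 1.64e-33). HBEGF (-0.67 and 0.59) and NRG1 (-1.09 and 0.71) moved with it, and TGFA rose by 1.30 in Fadu with 0.05 in Cal27, which did not pass. The receptor EGFR moved against its ligands, with 0.29 in Cal27 and -0.34 in Fadu, as did ERBB3 (0.26 and -0.52).

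The feedback inhibitors that ERK induces rose in Fadu. SPRY4 went from 2.07, 1.46 and 0.918 to 10.1, 9.86 and 11.9 CPM in Fadu and from 35.2, 32.4 and 30.4 to 41.6, 40.4 and 38.2 CPM in Cal27, a rise in both lines with a difference of -2.53 ± 0.17 (SE, adjusted p = 3.61e-16). The ERK phosphatase DUSP6 went from 14.3, 10.7 and 11.7 to 40.2, 42.5 and 41.1 CPM in Fadu and stood at 62.2, 68.7 and 61.6 CPM before and 64.4, 64.4 and 62.8 CPM after in Cal27, which overlap (difference -1.77 ± 0.095 SE, adjusted p = 6.42e-21). DUSP4, a related phosphatase, rose by 1.89 in Fadu with -0.03 in Cal27, which did not pass. Without the length trend the Cal27 value of DUSP6 was 0.19 and called.

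AP-1 subunits, products of immediate early genes, moved in opposite directions. FOSB (ENSG00000125740.14, chromosome 19, 45467995 to 45475179, plus strand) went from 21.6, 26.1 and 26.7 to 115, 100.1 and 102 CPM in Cal27 and from 53.5, 52.1 and 53.3 to 18.9, 14.1 and 18.4 CPM in Fadu, the widest difference among the genes named for a rise in Cal27 and a fall in Fadu (3.73 ± 0.12 SE, adjusted p = 1.57e-18). FOS went from 74.3, 72.4 and 74.1 to 145, 132 and 151 CPM in Cal27 and from 401, 399.9 and 397 to 202, 183 and 180.3 CPM in Fadu (difference 2.04 ± 0.060 SE, adjusted p = 7.81e-31). FOSL1, which encodes the later FRA1 subunit, did the reverse, from 1368, 1349 and 1325 to 1043, 995 and 988 CPM in Cal27 and 54.5, 54.6 and 57.1 to 219, 235 and 245 CPM in Fadu (difference -2.49 ± 0.050 SE, adjusted p = 1.6e-38). EGR1 rose slightly in Cal27 (0.12) and changed by -0.96 in Fadu. JUN had -0.17 and -0.11, with no called difference. Of 30 immediate early genes, 13 were higher and 9 lower in Cal27, and 6 moved in opposite directions each way.

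Sterol and fatty acid synthesis, both driven by SREBP factors, fell as lists in Fadu. Of 24 cholesterol synthesis genes, 20 fell and 1 rose in Fadu (median -0.76), 7 rose and 5 fell in Cal27 (median -0.03, which was 0.19 on TPM, with 14 up and 1 down, and 0.05 with library size only), and 17 had a higher and 2 a lower response in Cal27 (median difference 0.85). INSIG1, the sterol sensor that holds SREBP in the endoplasmic reticulum and is itself an SREBP target (ENSG00000186480.13, chromosome 7, 155297776 to 155310235, plus strand), went from 31, 30.6 and 30.9 to 41.2, 44.6 and 39.9 CPM in Cal27 and from 63.1, 68.2 and 63.7 to 16, 11.3 and 12.1 CPM in Fadu. Its difference was 2.76 ± 0.11 (SE, adjusted p = 4.24e-24). HMGCS1, which makes the precursor of mevalonate, went from 48.3, 51 and 50.3 to 75.7, 74.1 and 73.4 CPM in Cal27 and from 150.4, 149 and 145 to 62.2, 60.8 and 59.2 CPM in Fadu (difference 1.86 ± 0.065 SE, adjusted p = 9.25e-29). The cholesterol carrier STARD4 had 0.28 and -2.13 and EBP, a sterol isomerase, was reversed (-0.42 and 0.40).

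SCD, the stearoyl desaturase, was at 1016, 1041 and 1014 CPM in untreated Fadu and at 196, 151 and 135 CPM after plasma. In Cal27 it stood at 131, 128 and 122 CPM before and 150.4, 152 and 143 CPM after, a change that did not pass (difference 2.90 ± 0.16 SE, adjusted p = 4.29e-07). FADS1, a polyunsaturated fatty acid desaturase, went from 78.3, 78 and 83.1 to 101, 104 and 101 CPM in Cal27 and from 174, 173 and 169 to 79.9, 75.4 and 68.1 CPM in Fadu. Of the 17 members tested, 13 had a higher and 2 a lower response in Cal27, with 13 falling in Fadu and 7 rising in Cal27 (13 rising on TPM). FASN had a difference of 0.67 ± 0.045 (SE, adjusted p = 6.75e-18), and the SREBP1 gene SREBF1 fell in both lines (-0.57 and -1.52).

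Genes of mitosis and G2/M rose in Cal27 and fell in Fadu. Of 49 members, 34 rose and 2 fell in Cal27 (median 0.27), 5 rose and 35 fell in Fadu (median -0.31), 26 did so in opposite directions, and 38 had a higher and 5 a lower response in Cal27 (median difference 0.55, and 0.58 and 0.45 without the length and the GC trend). ASPM, a spindle pole protein, went from 61.4, 61.5 and 62.9 to 121, 122 and 126 CPM in Cal27 and from 347, 343 and 355 to 203, 208 and 194 CPM in Fadu (difference 1.77 ± 0.055 SE, adjusted p = 4.16e-31). CENPF, a kinetochore protein, went from 172, 171 and 179 to 272, 259 and 256 CPM in Cal27 and from 492, 489 and 494 to 245, 244 and 229 CPM in Fadu. MKI67, which encodes the proliferation antigen Ki-67, went from 284, 276 and 306 to 457, 445 and 437 CPM in Cal27 and from 830.3, 794 and 832 to 553, 551 and 566 CPM in Fadu (difference 1.19 ± 0.048 SE, adjusted p = 3.96e-26). Some members did not follow. CCNB1, cyclin B1, had no called difference (0.11 ± 0.050 SE, adjusted p = 0.0689), and the mitotic kinase AURKB (-0.20 and 0.36) and securin, PTTG1 (-0.19 and 0.18), fell in Cal27 and rose in Fadu.

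Genes of DNA replication and G1/S depended on the scaling, with 10 of 38 higher and 14 lower in Cal27 and a median difference of -0.0046 here, and 18 higher, 3 lower and a median of 0.18 on TPM. Among 42 genes that repair double-strand breaks, 26 rose and 7 fell in Cal27, and 9 rose and 14 fell in Fadu. The Fadu balance depended on the processing: 14 rose and 7 fell with library size only, and 13 and 8 without the length trend. Without the GC trend 13 rose and 10 fell in Fadu, and on TPM 7 rose and 12 fell of 40 tested. In the difference 21 were higher and 3 lower, with a median of 0.24. Without the length trend 11 were lower and the median was 0.18, and without the GC trend it was 0.11. BRCA2 went from 36.3, 39.5 and 40.1 to 66.5, 65.1 and 64.2 CPM in Cal27 and from 92.4, 85.5 and 83.6 to 53.3, 61.7 and 52.5 CPM in Fadu (difference 1.40 ± 0.081 SE, adjusted p = 5.38e-20). The kinase ATM went from 35.2, 37.8 and 40.2 to 74.2, 73.7 and 74.1 CPM in Cal27 and from 153, 148 and 159 to 138, 139 and 136 CPM in Fadu. XRCC3, a gene of homologous recombination, was reversed (-0.45 and 0.52). Among p53 targets, 9 of 28 were higher and 9 lower, against 23% and 22.3% of all genes tested, with a median difference of 0.02. Members down in Cal27 and up in Fadu were 5, and 3 were the reverse, so the 2 genes given next do not stand for the list. CDKN1A, the inhibitor p21, went from 146, 138 and 136 to 90.7, 94.2 and 93.3 CPM in Cal27 and from 40.2, 38.7 and 39.5 to 81.7, 83.4 and 85.3 CPM in Fadu (difference -1.67 ± 0.065 SE, adjusted p = 5.13e-27), and AEN, an apoptotic nuclease, moved likewise (-0.26 and 1.33).

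Ribosomal proteins and respiratory chain subunits fell in Cal27 and rose in Fadu by small amounts. Of 54 cytosolic ribosomal protein genes, 52 fell in Cal27 (median -0.37) and 42 rose and 3 fell in Fadu (median 0.19), and 52 had a lower response in Cal27 (median difference -0.52). RPS27A, for example, went from 791, 804 and 783 to 564, 594 and 615 CPM in Cal27 and from 496, 490.3 and 509 to 670.4, 629 and 666 CPM in Fadu. These genes have short transcripts and many pseudogenes. Without the length trend the median was -0.21, 39 members were lower and 3 higher, and those in opposite directions went from 41 to 18 (23 on TPM). Nuclear-encoded oxidative phosphorylation genes did the same, with 45 of 54 lower and 2 higher in the difference (median -0.52, and -0.25 without the length trend), 46 falling in Cal27 and 30 rising in Fadu. On TPM 25 were lower in the difference, 15 fell in Cal27 and 10 in place of 27 fell in Cal27 and rose in Fadu. Without the length trend 31 were lower, 39 fell in Cal27 and 23 rose in Fadu. NDUFB9, a complex I subunit, went from 81.7, 86.1 and 87.6 to 67.8, 63.1 and 64.5 CPM in Cal27 and from 97.7, 93.5 and 95 to 144, 136 and 149 CPM in Fadu. Ribosome biogenesis genes rose in Fadu, 26 of 34 (median 0.34), and 24 had a lower and 3 a higher response in Cal27. Their median in Cal27 was -0.14 (4 up, 19 down), but 0.10 on TPM (16 up, 8 down). NOP56, a nucleolar protein, went from 365, 376 and 352 to 297, 288 and 289 CPM in Cal27 and from 174, 169 and 172 to 272, 282 and 271 CPM in Fadu, and ODC1, the polyamine enzyme, went from 107, 104 and 103 to 271, 286 and 295 CPM in Fadu with overlapping levels in Cal27.

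The integrated stress response and the endoplasmic reticulum stress lists fell in Fadu, and in Cal27 by an amount that depended on the scaling. Of 28 ATF4 targets of the integrated stress response, 20 fell in Cal27 and 25 in Fadu, with medians of -0.28 and -0.62, and 20 had a higher and 4 a lower response in Cal27. On TPM 9 fell and 8 rose in Cal27 (median -0.04), while 25 fell in Fadu. CHAC1, a glutathione-degrading enzyme, went from 155, 153 and 138 to 76.1, 72.2 and 73.6 CPM in Cal27 and from 73.7, 70.1 and 71.2 to 17.2, 10.8 and 8.89 CPM in Fadu. ASNS, asparagine synthetase, rose in Cal27, from 6.3, 8.16 and 8 to 8.81, 10 and 8.44 CPM, and fell in Fadu, from 28.9, 30.4 and 28.6 to 12.6, 12.3 and 12.5 CPM. PPP1R15A, the phosphatase subunit that ends the response, was reversed (-0.82 and 0.48). Of 21 endoplasmic reticulum chaperone and unfolded protein response genes, 14 fell and 5 rose in Cal27 and 19 fell in Fadu, and on TPM 7 fell and 6 rose in Cal27 (median -0.05) and 18 fell in Fadu. HERPUD1, of the degradation pathway, went from 469, 488 and 466 to 104, 79.8 and 73.8 CPM in Fadu and from 198, 201 and 196 to 161, 162 and 159 CPM in Cal27 (difference 2.17 ± 0.14 SE, adjusted p = 1.04e-06), and SEL1L, of the same pathway, rose in Cal27 (0.57) and changed by -1.2 in Fadu. Heat shock proteins did not separate the lines as a list (10 of 25 higher, 6 lower), and HSPA1A, which shares reads with HSPA1B, rose in both (0.83 and 0.66) with no called difference (0.17 ± 0.093 SE, adjusted p = 0.152).

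Hypoxia and glycolysis genes fell in Fadu, 26 of 32 (median -0.31), while 10 rose and 11 fell in Cal27, and 20 had a higher and 4 a lower response in Cal27. The balance in Cal27 depended on the scaling, with 19 up and 2 down on TPM and 14 up and 7 down with library size only, and 16 in place of 8 rose in Cal27 and fell in Fadu on TPM. NDRG1 went from 352, 354 and 366 to 545, 520.0 and 526 CPM in Cal27 and from 852, 850.1 and 881 to 409.7, 389 and 372 CPM in Fadu (difference 1.71 ± 0.048 SE, adjusted p = 9.14e-33). BNIP3L, a receptor for mitophagy, went from 75.6, 80.1 and 77.8 to 89.3, 101 and 95.8 CPM in Cal27 and from 99.1, 95.1 and 98.7 to 45.6, 40.7 and 37.6 CPM in Fadu. CA9, carbonic anhydrase 9, fell in Fadu only by the test, from 3.03, 2.47 and 2.72 to 1.13, 0.725 and 0.904 CPM, a low level. The glycolytic enzymes GAPDH (-0.37 and -0.33) and PKM (-0.20 and -0.27) fell in both with no called difference. For iron, the transferrin receptor TFRC went from 695, 699.5 and 741 to 1013, 1048 and 1054 CPM in Cal27 and from 564, 570.0 and 570.2 to 371, 379 and 334 CPM in Fadu (difference 1.2 ± 0.050 SE, adjusted p = 1.33e-24).

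Squamous identity genes fell in both lines, 13 of 18 in each. KRT5, the basal keratin, went from 285, 286 and 279 to 114, 109 and 113 CPM in Cal27 and from 3949, 3823 and 3755 to 1340.4, 1169 and 1119.6 CPM in Fadu, and TP63, the master regulator, had -0.60 and -0.69 with no called difference. S100A2 went from 442, 458 and 427 to 267, 272 and 284 CPM in Cal27 and from 292, 265 and 303 to 599, 574 and 600.0 CPM in Fadu (difference -1.73 ± 0.054 SE, adjusted p = 3.53e-29), and the keratins KRT6A (-0.79 and 0.29) and KRT6B (-0.64 and 0.96), whose reads cannot be fully separated, moved with it. DSC3, a desmosomal cadherin, went the other way, from 37.5, 41.6 and 41.4 to 48.2, 45.3 and 45 CPM in Cal27 and from 324, 326 and 326 to 149, 137 and 121 CPM in Fadu. Keratinocyte differentiation genes fell more often than they rose, 9 against 2 of 23 in Cal27 (median -0.54) and 13 against 2 in Fadu (median -1.17). The response was higher in Cal27 for 8 and lower for 6, with a median difference of 0.56, and on TPM, where 22 were tested, it was higher for 11 and lower for 2. FLG, which encodes filaggrin of the cornified layer, stood at 0, 0.152 and 0.145 CPM before and 0.959, 0.608 and 0.607 CPM after plasma in Cal27, a trace level, and went from 11.3, 9.91 and 8.93 to 1.79, 1.16 and 1.46 CPM in Fadu. The test called a rise in Cal27 and a fall in Fadu, and the Cal27 fold rests on a few reads. The crosslinking enzyme TGM1 had 0.85 and -1.71, whereas the serpins SERPINB3 (-1.05 and -3.10) and SERPINB4 (-1.09 and -3.29), which share reads, fell in both lines.

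Of 14 complement genes, 10 fell in Fadu and 8 in Cal27, with 7 higher and 2 lower in the difference (median 0.81). On TPM, where 12 were tested, 8 fell in Fadu and 3 in Cal27. C3, the central component, went from 758, 734 and 737 to 574, 583 and 570.2 CPM in Cal27 and from 168, 169 and 170.4 to 45.7, 34.8 and 35.3 CPM in Fadu (difference 1.77 ± 0.094 SE, adjusted p = 8.12e-10). The protease C1S went from 90.8, 90.5 and 91.6 to 63.9, 63.5 and 57.2 CPM in Cal27 and from 46.2, 45.4 and 43.9 to 12.4, 6.99 and 7.9 CPM in Fadu. The membrane regulators that protect cells from complement divided: CD55 (-0.30 and 1.13) and CD59 (-0.26 and 0.66) fell in Cal27 and rose in Fadu, and CD46 did the reverse (0.32 and -0.52). Of 11 ligands of natural killer receptors, 2 had a higher and 5 a lower response in Cal27, and 4 and 3 on TPM. Examples are MICA (-0.26, and 0.14 in Fadu, which did not pass), MICB (0.16 and 0.76) and RAET1L (-0.74 and 1.18).

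Matrix, protease and epithelial-mesenchymal transition genes divided as well: 17 of 33 had a lower and 7 a higher response in Cal27 (median difference -0.51), with 16 rising and 11 falling in Fadu. TNC, the matrix protein tenascin C, went from 6.7, 6.21 and 5.38 to 24, 22.8 and 22.8 CPM in Fadu and from 934, 936 and 1037 to 713, 705 and 697 CPM in Cal27 (difference -2.38 ± 0.074 SE, adjusted p = 1.14e-29).

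**Figure D5:**
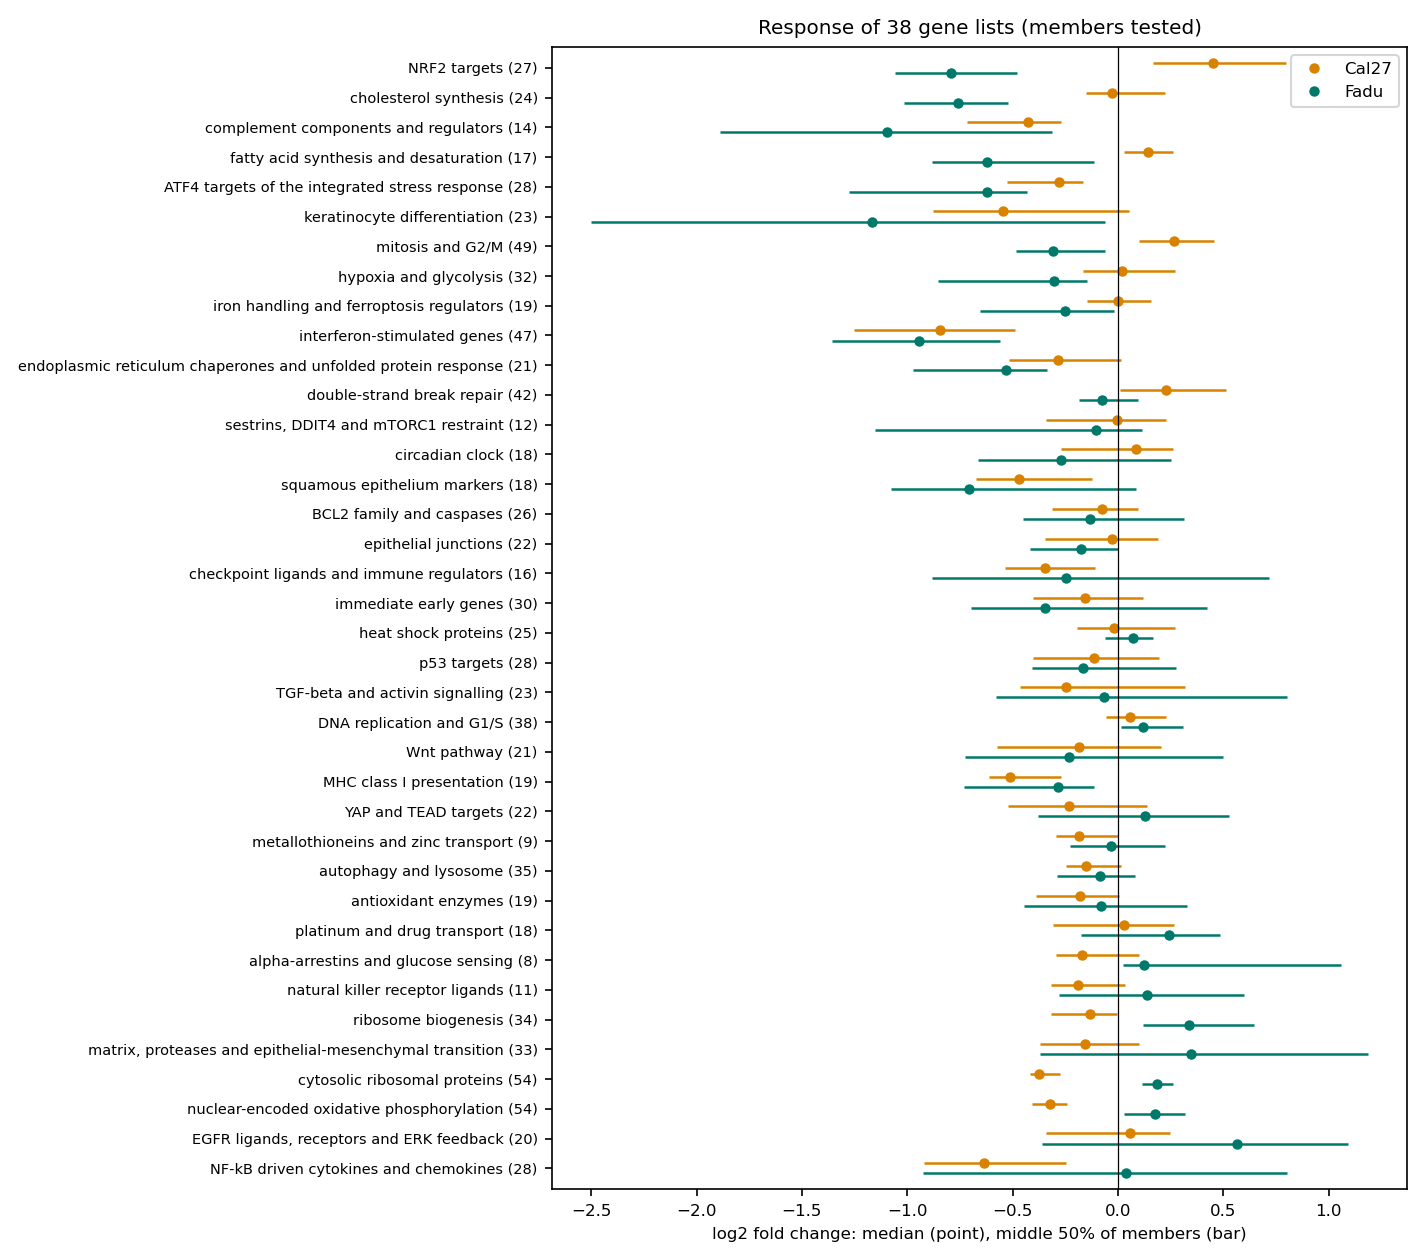
Median log2 fold change after plasma of 38 gene lists in Cal27 (orange) and Fadu (green), with bars over the middle 50% of members, ordered by the median difference. NRF2 targets (0.45 and -0.79) head the order, and the medians of cytosolic ribosomal proteins (-0.37 and 0.19) lie on either side of 0 in the opposite sense.

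The genes named for opposite movement were 12 in each direction, chosen by the size of the difference among genes with at least 10 CPM in the higher group of each line and no overlap. Beside those already given, TRIM16L (difference 2.56), which shares reads with TRIM16, HEG1, an endothelial and epithelial receptor (2.55), JADE2 (2.35), cyclin G2, CCNG2 (2.05), and the focal adhesion gene TNS3 (2.05) rose in Cal27 and fell in Fadu. The lipoxygenase ALOXE3 (-3.88), the sphingosine kinase SPHK1 (-3.72), the proteases ADAMTS6 (-3.27) and ADAM8 (-2.54), the lymphangiogenic factor VEGFC (-2.71) and SPOCD1 (-2.43) fell in Cal27 and rose in Fadu. Of the 24, 13 were in opposite directions under each of the 28 alternatives, and 11 lost this under at least 1 of them: STARD4, JADE2, CCNG2, TNS3, INHBA, TXNIP, ALOXE3, SPHK1, NT5E, VEGFC and ADAM8. Among the 16 genes named for a difference without opposite calls, IL1RL1, the receptor of IL-33, had the widest one: 3.55, 4.94 and 3.64 CPM before and 98.6, 109.8 and 103 CPM after plasma in Fadu, and 27.7, 24.1 and 22.8 CPM before and 21.8, 20.7 and 24.3 CPM after in Cal27, which overlap (-4.82 ± 0.12 SE, adjusted p = 8.17e-30). MUC16, the CA-125 mucin, stood at 11.4, 10.9 and 12.8 CPM before and 12.1, 10.3 and 9.59 CPM after plasma in Cal27, which overlap, and went from 13, 10.8 and 13.1 to 1.57, 1.6 and 1.34 CPM in Fadu (difference 2.89 ± 0.19 SE, adjusted p = 4.59e-18). HMGA2, a chromatin protein, rose in both lines, from 391.9, 393 and 421 to 456, 457 and 455 CPM in Cal27 and from 19.2, 18.9 and 19.9 to 86.5, 91.7 and 92.4 CPM in Fadu, and by more in Fadu (difference -2.04 ± 0.058 SE, adjusted p = 1.46e-32).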

How the data were processed

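Per the labels' protocols, RNA of the 12 libraries was taken with Trizol, and the SMARTER mRNA-Seq kit and a HiSeq3000 were used. The authors deposited counts per gene and TPM values in separate tables for all 24 libraries. Alignment to GRCh38 with HISAT2 is listed in the submitters' processing notes. The HISAT2 version, counter, annotation and strand setting were not given in the sources used here, so reads of overlapping or antisense genes cannot be told apart. The deposited TPM values equalled the counts over 1 length per gene to a relative departure of 6.94e-15, and this length served as relative transcript length.

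Symbols came from reference tables for 61369 of 61533 gene IDs. Counts were tested in edgeR 4.0.16 (R 4.3.3): filterByExpr (minimum count 10, minimum total 15), TMM scaling over the 12 libraries, a quasi-likelihood fit with 1 mean per group, contrasts for each line and for their difference, and Benjamini-Hochberg adjustment over 20539 genes, with a threshold of 0.05 and no minimum fold. The SE is that implied by the quasi-likelihood F. Printed levels are TMM-scaled CPM, not scaled by gene length, so levels are compared within a gene only. Alternatives used DESeq2 1.42.0, limma 3.58.1 on log2(TPM + 1) and log2(TPM + 0.1), other scalings and filters, a replicate block, a minimum fold of 1.2, all 24 libraries in 1 fit, removal of the length trend, and leaving out each library. Removal of the GC trend was added after seeing the data. The code was tested on simulated data.

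Replicates differed by more than sampling noise.

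Members and the 43 gene lists were chosen with earlier results of these data known. Genes with library values were named by a rule: the 12 widest opposite differences in each direction without overlap of libraries, the 8 widest others in each direction (both at 10 CPM or more in the higher group of each line), the 2 smallest adjusted p of each list, a panel of 36 genes, and genes at 10 CPM in 1 line and under 1 CPM in the other. List members given by their changes alone were picked as examples after their values were seen. Promoters were searched for 7 motifs, and 2 are reported. Some genes are not reported here by name, and remain in the counts.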

Additional observations from a re-analysis of the deposited data

Results flagged for a closer look

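Of the 24 genes named for opposite movement, 23 are listed. The difference between the lines was itself tested for each, by the contrast of the Cal27 and the Fadu change in edgeR. An adjusted p under 0.05 in that contrast was a condition of being named, so passing it is no further support. With a rise in Cal27 and a fall in Fadu, the log2 differences were FOSB (3.73), AKR1C1 (3.19), INSIG1 (2.76), SLC7A11 (2.57), TRIM16L (2.56), HEG1 (2.55), STARD4 (2.42), JADE2 (2.35), GCLC (2.27), CCNG2 (2.05), TNS3 (2.05) and FOS (2.04). With a fall in Cal27 and a rise in Fadu, they were INHBA (-5.03), TXNIP (-4.43), FST (-4.24), ALOXE3 (-3.88), SPHK1 (-3.72), NT5E (-3.59), ADAMTS6 (-3.27), VEGFC (-2.71), ADAM8 (-2.54), FOSL1 (-2.49) and SPOCD1 (-2.43). Groups of 3 libraries are too small for a check of single outlying libraries. In SCD, HERPUD1, CHAC1, C1S, KRT4 and CP, which fell in Fadu, treated replicate 1 lay nearest to the untreated libraries. How many genes share this was not counted, and such genes are not independent.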

How the results depend on the processing

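The 28 alternatives kept the sign and the call of 126 to 132 of the named differences each, out of 132, or 131 under a stricter filter. Many of these genes were chosen for a wide difference or a small adjusted p in the same data, so this followed largely from the choice. Of all 3379 genes called in opposite directions, 1822 were also so called with limma on log2(TPM + 1) and 2209 without the length trend. The count of called differences was within 1.5 times of 9288 under each. With limma on log2(TPM + 1), on log2(TPM + 0.1) and on log2(TPM + 1) with no filter, 2575, 2450 and 2512 differences were lower in Cal27. The Cal27 falls then numbered 1166, 1130 and 1023, the opposite calls down in Cal27 519, 509 and 416, and the Cal27 rises 6308 and 6402 with the filter. With a minimum 1.2-fold change, 3023 genes were called in Cal27 (1674 up, 1349 down), 5320 in Fadu (2580 up, 2740 down) and 679 in opposite directions (355 up and 324 down in Cal27). Leaving out 1 library at a time gave 8821 to 9267 differences (4486 to 4761 higher, 4327 to 4602 lower), 7113 to 8082 in Cal27 (3545 to 4056 and 3568 to 4026), 8868 to 10028 in Fadu (4389 to 5028 and 4479 to 5038) and 3063 to 3343 opposite (1501 to 1649 and 1555 to 1725). Where this left 1 group with 2 libraries the spread came from all groups. Replicate numbers did not pair the libraries (correlations of same-numbered deviations from -0.015 to 0.0084), and the fit with the replicate block called 9199 differences.

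The sign of these values changed, and the cause was not tested beyond the setting itself. They were taken from named genes called under either setting and from lists with most members called in 1 direction. On TPM, the Cal27 change became 0.11 for NT5E and 0.21 for ODC1, the difference 0.17 for B2M and 0.0373, 0.0463 and 0.0373 for TRIB3, and the Cal27 median 0.0574, 0.0580 and 0.0525 for antioxidant enzymes, 0.10 for ribosome biogenesis and 0.0751, 0.0822 and 0.0751 for autophagy. Without the length trend, the Cal27 change was 0.19 for DUSP6 and 0.14 for ODC1, the Fadu change -0.10 for HLA-C and the difference 0.26 for B2M. Without the GC trend, the Cal27 change was -0.0299 for ACSL3, the Fadu change -0.10 for HLA-C and the differences 0.0446 for COL1A1 and 0.15 for TRIB3. With library size only the Fadu change of CCNB1 was 0.0931, and with limma on log2(TPM + 1) and no filter the Cal27 median of YAP targets was 0.0017. Low counts limit INHBA, FLG and CXCL10 in 1 line.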

Other observations

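Some responses had no counterpart because the gene was present in 1 line only. Such genes reached a mean of 10 CPM in the higher group of 1 line and stayed under 1 CPM in both groups of the other. They numbered 84 for Cal27, of which 14 rose and 30 fell, and 176 for Fadu, of which 52 rose and 67 fell. Entry by the higher group favors genes that changed, and TLR4, CDH11 and AADAC, given below, reached 10 CPM only after plasma. Over all genes tested, 19.7% rose and 19.5% fell in Cal27, and 23.8% rose and 24% fell in Fadu. No difference between lines is given for the genes present in 1 line only. In Cal27 the decoy death receptor TNFRSF10D went from 14.3, 14.2 and 15.7 to 23.2, 21.8 and 23 CPM (log2 change 0.62 ± 0.11, adjusted p = 6.15e-06), and it was at 0 counts in every Fadu library. TLR4, the receptor for lipopolysaccharide, went from 7.94, 8.16 and 6.63 to 11.8, 11.7 and 11.4 CPM in Cal27 and was also at 0 in Fadu. BATF2, an interferon-induced transcription factor, fell in Cal27 from 35, 33.8 and 29 to 13, 13.6 and 12.2 CPM (-1.33 ± 0.11, adjusted p = 3.07e-14), and TNFSF18, the ligand of the costimulatory receptor GITR, from 21, 18.7 and 20.4 to 8.99, 8.57 and 7.96 CPM.

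Among the genes present in Fadu, CDH11, a mesenchymal cadherin, went from 1.4, 1.69 and 1.11 to 17, 17.6 and 18.2 CPM (3.63 ± 0.17, adjusted p = 1.54e-22) and was at 0 in Cal27. AADAC, a deacetylase, rose from 5.36, 4.34 and 5.48 to 38.7, 41.9 and 39.3 CPM. KRT4, a keratin of mucosal epithelium, fell from 128, 129 and 121 to 13.5, 4.4 and 3.21 CPM (-4.19 ± 0.43, adjusted p = 0.000181), and CP, ceruloplasmin, the copper-carrying ferroxidase, from 71.6, 67.5 and 68.4 to 6.86, 2.8 and 2.19 CPM. The 3 treated Fadu libraries lay apart from the untreated ones in each of these genes. The genes were picked for the widest called changes, so this separation followed largely from the choice. The changes are edgeR quasi-likelihood values with their SE, adjusted over all genes tested.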
